A study of Mus musculus with 6 samples.

Results

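The genes described here encode the proteins of the cytoplasmic ribosome, together with their paralogs, in mouse testis. They were taken as every listed gene whose symbol begins with Rpl or Rps and a number, without symbols marked -ps as pseudogenes and without the Rps6k kinases. This gave 84 of the 23253 genes listed in any library: 73 core genes (43 of the large subunit and 30 of the small), 8 paralogs and 3 others. Of the 84, 82 were listed in all 6 libraries and 82 were read deeply enough to be tested; Rpl3l and Rpl32l were not. All 84 matched the RefSeq gene table of GRCm38.p6, whose primary assembly is mm10. Rps19bp1, which the name rule takes in, encodes a protein that binds Rps19 and is no part of the ribosome.

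Polyadenylated RNA was sequenced from testes of C57BL/6 mice at 8 months of age, in 3 libraries labelled L3mbtl2 cKO (a conditional knockout) and 3 labelled control. L3mbtl2 encodes a subunit of a Polycomb repressive complex, and the design asks how its loss alters testis mRNA. The labels name neither the Cre driver nor the cells in which the gene was deleted, and give the controls no genotype beyond that word. Nothing in them says that the 3 libraries of a group are 3 animals, so the p-values speak for variation among libraries, part of which may be technical.

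At the targeted gene the counts ran against the direction that the label cKO leads one to look for. A count over the whole gene cannot by itself tell which group carries the deletion. L3mbtl2 was read with an expected count of 1030, 1105 and 1031 in the libraries labelled cKO, against 658, 705 and 673 in those labelled control, so it was higher, not lower, under the label cKO (log2 fold change 0.67, SE 0.10; adjusted p 0.166 in edgeR's quasi-likelihood test and 0.00031 in DESeq2). The adjusted p was 0.0085 in edgeR without control replicate 2, and on FPKM, where length enters, the log2 difference in limma was 0.19. The names of the deposited tables also carry the opposite genotype from the sample titles. Groups follow the titles here, every library is called by its label (control replicate 3 is the library so labelled), and every direction would turn if the labels were exchanged. Total expected counts were 18604191 to 18822050 in the libraries labelled cKO and 17689205 to 18083291 in those labelled control. The libraries labelled cKO were much alike and those labelled control were not; of these, replicates 1 and 3 had the highest levels of somatic cell markers. The summed level of 8 Leydig cell markers was 1267, 1352 and 1263 FPKM in the libraries labelled cKO, against 3634, 1693 and 8980 FPKM in those labelled control. In such whole-tissue RNA, fewer cells of a type and less RNA per cell cannot be told apart.

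A ribosome carries a single copy of nearly every one of its proteins, most encoded by one gene. The messages share a run of pyrimidines at the 5′ end, the TOP motif, through which mTOR signalling controls their translation. Male germ cells meet a particular problem: the X chromosome is silenced during meiosis, and some of the ribosomal protein genes lie on it. Autosomal copies, many of them made by reverse transcription of the X-linked message, are active in spermatocytes and spermatids. In mice, Rpl10l stands in for Rpl10 in male meiosis, and Rpl39l, a testis-enriched paralog of Rpl39, lies at the tunnel through which the new protein leaves the ribosome.

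The coding sequences are shown because reads have to tell each paralog from its parent. Those of Rpl39l and Rpl39 are given whole, in the GENCODE M21 models, 5′ to 3′ from the start codon, with the bases that differ between the pair in capitals.
Rpl39l: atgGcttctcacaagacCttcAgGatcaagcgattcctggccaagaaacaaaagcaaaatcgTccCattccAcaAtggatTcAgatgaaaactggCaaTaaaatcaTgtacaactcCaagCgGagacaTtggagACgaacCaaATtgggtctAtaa
Rpl39: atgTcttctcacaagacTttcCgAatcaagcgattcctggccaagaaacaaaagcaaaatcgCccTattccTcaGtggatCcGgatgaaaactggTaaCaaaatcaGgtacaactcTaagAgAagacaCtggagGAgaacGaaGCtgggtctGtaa
They differ at 23 of 156 bases, an identity of 85.3%. Rpl10l and Rpl10 differ at 98 of 645 bases, an identity of 84.8%, and coding bases 304 to 393 are given in the same way, where 20 of 90 differ.
Rpl10l: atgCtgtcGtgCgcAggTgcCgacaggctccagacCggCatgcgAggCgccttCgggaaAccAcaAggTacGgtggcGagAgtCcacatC
Rpl10: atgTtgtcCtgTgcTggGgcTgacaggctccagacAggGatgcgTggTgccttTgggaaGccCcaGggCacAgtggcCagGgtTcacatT
No 31-base stretch was shared by the coding sequences of Rpl10l and Rpl10, and 6.35% of such stretches of Rpl39l were found in Rpl39. A read that could come from several genes is split between them, which leaves an expected count that is not whole. Of the ribosomal protein genes listed in a library, 59.5 to 63.9% had such a count (tolerance 1e-06), against 24.6 to 25.8% of all genes, and how those reads were split bears on their levels. Rpl10l, Rpl10, Rpl39l and Rps4l had whole counts in all 6 libraries.

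The starts of the genes are shown next, since the X-linked parents differed together between libraries. Each line gives 30 bases of the RefSeq promoter table (GRCm38.p6) around the longest pyrimidine run within 50 bases on either side of the annotated start, with that run in capitals. The pairs lie as follows: Rpl10l at chr12:66284436-66284465 on the minus strand, Rpl10 at chrX:74270836-74270865 on the plus strand, Rpl39l at chr16:10170186-10170215 on the plus strand, and Rpl39 at chrX:37085173-37085202 on the minus strand. Rpl41, the highest of the genes described here in mean FPKM, is at chr10:128549119-128549148 on the minus strand.
Rpl10l: gtcttcctcagtctctatgaTTCCCgcaag
Rpl10: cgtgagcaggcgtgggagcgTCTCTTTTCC
Rpl39l: ctttcaacacccactgCCTCTCCCTagctc
Rpl39: gttcttccggtcccggCCTTTCTCTTCTCC
Rpl41: cgccattaaatagcagtaggCCTCCCTCTC
Within those 50 bases Rpl10l had no run longer than 5, though its 30 bases hold a run of 8, in lower case, farther upstream. Rpl39l had a run of 9 that starts at -26 from the annotated start and lies wholly upstream of it. Those of Rpl10, Rpl39 and Rpl41 start downstream, at 41, 37 and 41. The runs of Rpl10, Rpl39 and Rpl41 reach the end of the sequence in the table, so they are at least 10, 14 and 10 pyrimidines long. A run of at least 8, read on the sense strand of the same 50 bases to either side, was present in 47 of the 54 core genes that have a promoter entry (87.0%), in 5 of 7 paralogs, and in 39.3% of all 27025 genes in the table. The ETS core CGGAAG, searched on both strands of the 300 bases, was present in 38 of 54 core genes (70.4%), in 3 of 7 paralogs and in 18.8% of all genes. The YY1 core AAGATGG was present in 9 of 54 core genes, 1 of 7 paralogs and 7.28% of all genes, and the cAMP response element TGACGTCA in 5, 0 and 2.03%. A match in these windows is a matter of letters only, and a run counted on either side of the start need not be a TOP motif.

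The X-linked core genes had lower mean levels in the libraries labelled cKO, and their highest level in every case in control replicate 3. In all, 4 core genes are X-linked: Rpl10, Rpl39, Rpl36a and Rps4x. All 4 were negative, with fitted log2 fold changes (labelled cKO over labelled control) of -1.34 to -0.89 and a median of -1.12. Without control replicate 3 the median was -0.46, with -0.69 for Rpl10, -0.53 for Rps4x, -0.38 for Rpl39 and -0.25 for Rpl36a. The 69 autosomal core genes had a median of -0.04 and all genes tested a median of -0.005. None of the 4 passed in edgeR's quasi-likelihood test, in which 0% of 18269 genes were called higher and 0% lower at an adjusted p of 0.05. DESeq2 called Rpl10 and Rps4x lower, the only members it called, with 8.04% of the genes it tested called lower and 0.445% higher.

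Rpl10 (mm10, X:74270816-74273135) encodes a large-subunit protein near the catalytic centre that joins late in ribosome assembly. Its level was 45.4, 43.3 and 43.3 FPKM in the libraries labelled cKO, against 97.9, 53.8 and 208 FPKM in those labelled control. All 3 libraries labelled control lay above those labelled cKO, replicate 2 by a small margin and replicate 3 by the widest. The means were 44.0 ± 1.21 and 119.8 ± 79.3 FPKM (SD, n = 3 each), with a log2 fold change of -1.34 (SE 0.41) and adjusted p of 0.166 in edgeR's quasi-likelihood test and 0.0185 in DESeq2.

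Its retrogene Rpl10l (12:66283379-66284401) differed little between the groups and in the other direction. It stood at 153.6, 152.9 and 149.4 FPKM in the libraries labelled cKO, against 145.8, 150.9 and 110.8 FPKM in those labelled control. Control replicate 3 was the one low library. The log2 fold change was 0.26 (SE 0.14), with an adjusted p of 0.232 in edgeR's quasi-likelihood test.

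Rpl39 (X:37082518-37085222) lines the exit tunnel of the large subunit. It had 30.1, 38.0 and 34.5 FPKM in the libraries labelled cKO, against 60.1, 35.7 and 129 FPKM in those labelled control. The groups overlapped, since control replicate 2 lay among the libraries labelled cKO. Rpl39l (16:10170197-10174911) had 208, 202 and 209 FPKM in the libraries labelled cKO, against 183, 222 and 157 FPKM in those labelled control. Here control replicate 2 was the highest of the 6 libraries and control replicate 3 the lowest. The log2 fold changes were -1.03 (SE 0.41) for Rpl39 and 0.23 (SE 0.14) for Rpl39l, with adjusted p of 0.173 and 0.299 in edgeR's quasi-likelihood test.

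Rps4x (X:102184941-102189391) encodes a protein of the small subunit. It had 22.9, 19.6 and 20.3 FPKM in the libraries labelled cKO, against 40.3, 24.3 and 91.6 FPKM in those labelled control. The groups did not overlap, though control replicate 2 came close. The log2 fold change was -1.20 (SE 0.42), with an adjusted p of 0.166 in edgeR's quasi-likelihood test and 0.0340 in DESeq2. Rps4l (6:148354656-148355596), which RefSeq lists as a transcribed pseudogene, had 87.0, 92.2 and 79.7 FPKM in the libraries labelled cKO, against 86.9, 81.2 and 73.3 FPKM in those labelled control. These overlapped, with a log2 fold change of 0.20 (SE 0.11; adjusted p 0.243 in edgeR's quasi-likelihood test).

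Rpl36a (X:134585654-134588062), a large-subunit protein, was the least abundant of the 4. It had 13.5, 16.7 and 14.7 FPKM in the libraries labelled cKO, against 23.2, 14.8 and 51.4 FPKM in those labelled control. Control replicate 2 again lay among the libraries labelled cKO. Its autosomal copy Rpl36al (12:69182734-69184067), whose coding sequence is 87.9% identical, had 116, 135 and 133 FPKM in the libraries labelled cKO, against 117, 129 and 148 FPKM in those labelled control. Unlike the other 3 copies it was highest in control replicate 3. The log2 fold changes were -0.89 (SE 0.41) and 0.06 (SE 0.12), with adjusted p of 0.197 and 0.770 in edgeR's quasi-likelihood test, and that of Rpl36al turned to -0.04 with library totals as the only scaling.

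**Figure D1:**
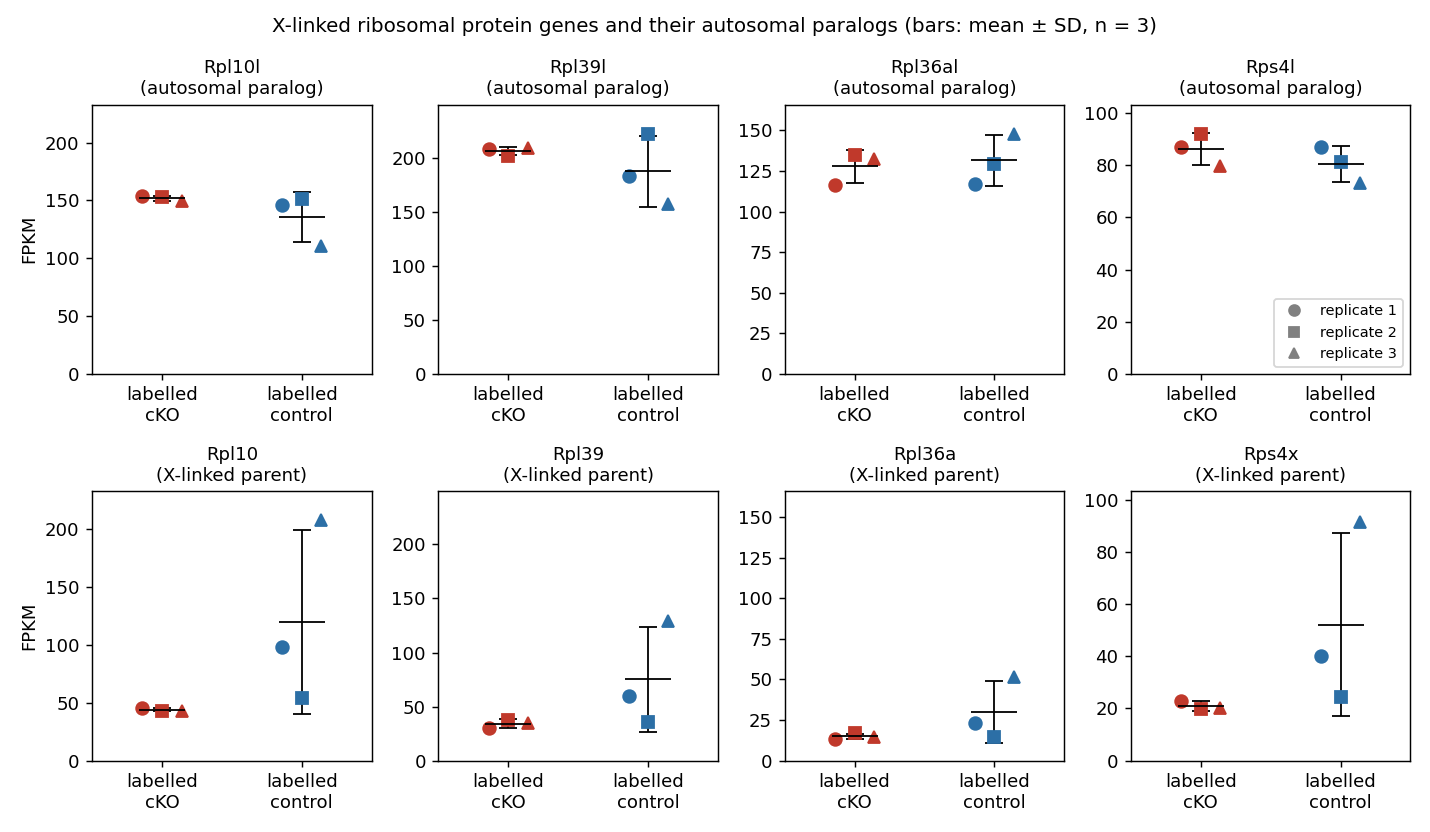
FPKM of the 4 X-linked parents and their 4 autosomal paralogs in each library, with points for single libraries and bars for the mean and SD of 3 libraries labelled cKO (left) and 3 labelled control (right). The parents spread widely in the libraries labelled control, Rpl10 between 53.8 and 208 FPKM, while Rpl10l stays between 110.8 and 153.6 FPKM in all 6.

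Within a library, the ratio of paralog to parent takes out anything that scales both alike. Rpl10l stood at 3.38, 3.53 and 3.45 times the FPKM of Rpl10 in the libraries labelled cKO, against 1.49, 2.80 and 0.533 times in those labelled control. Control replicate 3 was the one library in which Rpl10 exceeded its retrogene. Put as a share of the FPKM of the pair, Rpl10l gave 77.2, 77.9 and 77.5% in the libraries labelled cKO and 59.8, 73.7 and 34.8% in those labelled control. The sum over the pair was 199, 196 and 193 FPKM in the libraries labelled cKO, against 244, 205 and 319 FPKM in those labelled control.

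Rps4l behaved alike against Rps4x, at 3.80, 4.70 and 3.92 times in the libraries labelled cKO, against 2.15, 3.34 and 0.800 times in those labelled control. For Rpl39l over Rpl39 the ratio was 6.91, 5.31 and 6.05 in the libraries labelled cKO, against 3.05, 6.23 and 1.22 in those labelled control. Rpl36al over Rpl36a gave 8.61, 8.07 and 9.03 in the libraries labelled cKO, against 5.05, 8.73 and 2.88 in those labelled control. Control replicate 2 thus lay outside the range of the libraries labelled cKO for Rpl10l and Rps4l and inside it for Rpl39l and Rpl36al.

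The mean log2 ratio (pseudocount 0.1 FPKM) was higher in the libraries labelled cKO by 1.40 for Rpl10l, 1.20 for Rps4l, 1.09 for Rpl39l and 0.76 for Rpl36al. Over 8 pairs compared, the two-sided exact permutation test gave p = 0.1, the smallest that 3 libraries against 3 allow, for 5 pairs, so none could pass 0.05 with or without adjustment. Of these 4, Rpl10l and Rps4l were at 0.1 and Rpl39l and Rpl36al at 0.3. The differences rest much on control replicate 3: without it they were 0.76 for Rpl10l, 0.62 for Rps4l, 0.47 for Rpl39l and 0.37 for Rpl36al. Without control replicate 2 they were 1.95, 1.65, 1.65 and 1.16 in the same order. The same test was run on 2 pairs added to the 8, Rpl37rt to Rpl37 and Rpl32l to Rpl32. Neither reached 0.1, and in both the groups overlapped.

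**Figure D2:**
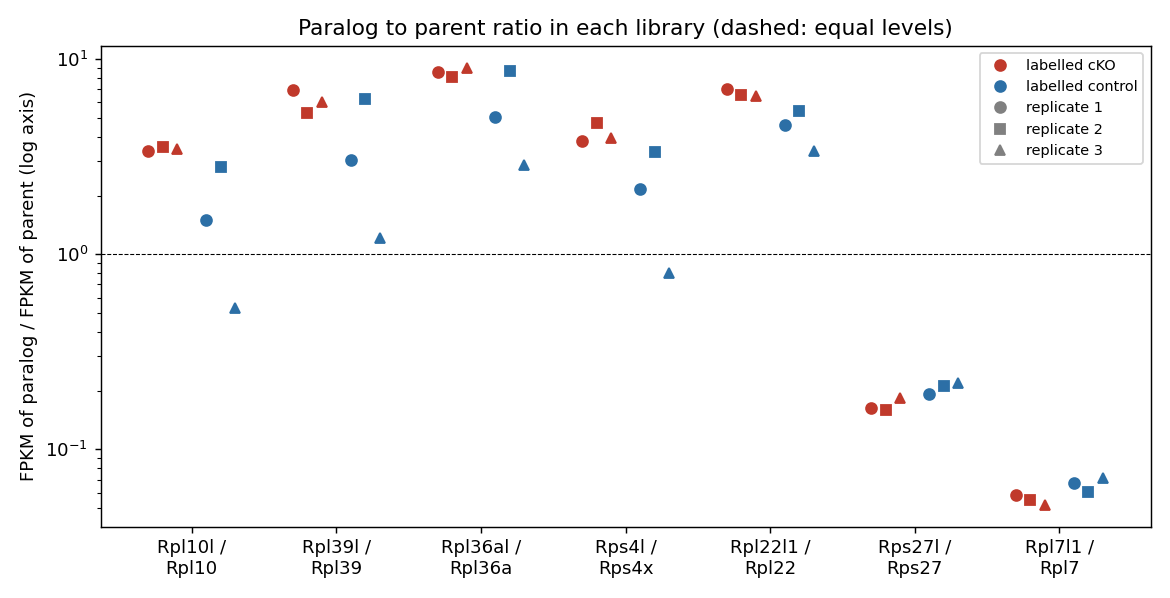
Ratio of paralog to parent FPKM on a log axis in each of the 6 libraries, for the pairs compared other than Rpl3l and Rpl3 and the 2 added pairs. Points are coloured by label, with a marker shape for each replicate number and a dashed line at equal levels. The 3 libraries labelled cKO sit close together at each of the X-linked parents, between 3.38 and 3.53 for Rpl10l, while those labelled control run from 0.533 to 2.80.

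Among pairs with an autosomal parent, Rpl22l1 stood out by its level. Rpl22, a large-subunit protein that mice can live without, had 16.4, 13.7 and 15.5 FPKM in the libraries labelled cKO, against 16.7, 18.4 and 28.5 FPKM in those labelled control. Rpl22l1, its paralog, had 115.5, 89.8 and 100.8 FPKM in the libraries labelled cKO, against 76.8, 100.3 and 96.0 FPKM in those labelled control. The paralog thus exceeded its parent in every library, by 6.50 to 7.05 times in those labelled cKO and by 3.37 to 5.45 times in those labelled control. The log2 ratio was higher by 0.61 in the libraries labelled cKO (exact permutation p = 0.1).

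The remaining paralogs were less abundant than their parents. Rps27l, a target of p53, had 55.3, 51.2 and 59.2 FPKM in the libraries labelled cKO, against 60.7, 70.5 and 86.3 FPKM in those labelled control. Its parent Rps27 was near 337 FPKM on average, and the ratio was 0.159 to 0.183 in the libraries labelled cKO and 0.193 to 0.219 in those labelled control (log2 difference -0.30, exact permutation p = 0.1). Rpl7l1 stood at 0.0520 to 0.0585 times the level of Rpl7 in the libraries labelled cKO and 0.0603 to 0.0712 times in those labelled control (log2 difference -0.25, exact permutation p = 0.1). For both pairs the direction was the reverse of that for the X-linked parents. Rpl3l, the form of Rpl3 found in skeletal muscle and heart, was at 0.08 to 0.37 FPKM, against 91.1 to 162 FPKM for Rpl3, and was not tested by itself.

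Levels of the core genes, compared per length as FPKM, ranged widely. The most abundant were Rpl41, which encodes the smallest ribosomal protein, at a mean of 702 FPKM over the 6 libraries, then Rpl32 at 462, Rps29 at 387, Rpl26 at 351 and Rps27 at 337 FPKM. Rpl41 was also the steadiest of them, with 696, 703 and 698 FPKM in the libraries labelled cKO, against 691, 724 and 699 FPKM in those labelled control. Rps29, Rpl26 and Rps27 overlapped in their ranges over libraries. Within each library Rps29 was the highest of these, and Rpl26 exceeded Rps27 in all but control replicate 3. The median autosomal core gene lay between 152 and 171 FPKM in the libraries labelled cKO and between 170 and 209 FPKM in those labelled control.

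At the other end, 6 of the 69 autosomal core genes were under 30 FPKM in every library. The lowest was Rpl5, which with Rpl11 and 5S RNA forms a particle that restrains Mdm2, at 0.36, 0.86 and 0.83 FPKM in the libraries labelled cKO, against 0.34, 0.81 and 3.45 FPKM in those labelled control. A single library set that difference: over all 6 libraries its log2 fold change was -1.04 (SE 0.78), and it was 0.35 without control replicate 3. Rpl27, Rpl31, Rpl15 and Rps15a, chosen after their values were seen, averaged 7.25, 7.48, 11.8 and 24.1 FPKM. The expected counts of Rpl5 and of these genes were not whole in any library, so how shared reads were split bears on their levels. Low FPKM is not always few reads: Rps15a had expected counts of 2092 to 2490, against 1780 to 2271 for Rps27, but the tables give it a length of 5186 bases, against 372 to 374 bases for Rps27.

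Across the autosomal core genes the groups were close. Of the 69, 41 were negative and 28 positive, against 50.5% negative among all genes tested. That split depends on scaling and on control replicate 3: it was 61 negative and 8 positive with library totals alone, and 19 negative and 50 positive without that library. By subunit, 22 of 40 large-subunit genes and 19 of 29 small-subunit genes were negative, with medians of -0.01 and -0.05. Rps20, a protein of the small-subunit head, was the highest core gene, with 88.5, 88.8 and 85.5 FPKM in the libraries labelled cKO, against 79.1, 84.1 and 78.1 FPKM in those labelled control. Its libraries did not overlap, and the log2 fold change was 0.22 (SE 0.09; adjusted p 0.175 in edgeR's quasi-likelihood test).

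Over the 82 genes tested, 5 were higher without overlap between the groups (6.10%, against 18% of all genes) and 7 lower (8.54%, against 19.8%). The 5 were Rpl10l, Rpl29, Rpl32, Rpl36 and Rps20, and the 7 were Rpl10, Rpl10a, Rpl14, Rpl15, Rps4x, Rps19 and Rps19bp1, of which Rpl29, Rpl36, Rpl10a, Rpl14, Rps19 and Rps19bp1 were chosen after their values were seen. At an unadjusted p under 0.05 in edgeR, in either direction, there were 5 of the 82, against 5056 of all 18269 genes (8.85% higher and 18.8% lower). Of these, Rpl10, Rps4x, Rpl39 and Rpl10a were lower and Rps20 was higher. limma on FPKM called 0 of the genes described here. Leaving out control replicate 2, edgeR's quasi-likelihood test called 7 of them lower and 1 higher, against 20.7% and 11% of all genes. The 7 were the 4 X-linked genes with Rpl10a, Rps2 and Rps3, and the 1 was Rpl39l (adjusted p 0.0299); both genes that DESeq2 called were among the 8.

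Rpl10a, a large-subunit protein, had 66.3, 63.5 and 62.7 FPKM in the libraries labelled cKO, against 85.2, 70.9 and 116.7 FPKM in those labelled control. For Rps19, a small-subunit protein whose human gene is mutated in Diamond-Blackfan anaemia, the values were 90.7, 91.1 and 88.6 FPKM under the label cKO and 108.6, 99.0 and 157 FPKM under the label control. Both had control replicate 2 nearest to the libraries labelled cKO and control replicate 3 farthest from them, the order seen for the X-linked genes. The log2 fold changes were -0.40 (SE 0.17) for Rpl10a and -0.33 (SE 0.17) for Rps19. Rpl29 and Rpl36, of the large subunit, had log2 fold changes of 0.18 (SE 0.08) and 0.19 (SE 0.08), and in FPKM, where length enters, Rpl36 had 323, 317 and 306 under the label cKO against 313, 284 and 293 under the label control. Rpl36, Rpl10l, Rpl29 and Rpl32, all apart in CPM, overlapped in FPKM, while Rps20 did not. Of the 3 genes outside the core and the paralogs, Rps19bp1 lay between 10.3 and 13.1 FPKM, Rpl32l reached at most 0.39 FPKM, and Rpl37rt had 1.17, 0.93 and 0.85 FPKM in the libraries labelled cKO, against 0, 2.26 and 3.49 FPKM in those labelled control.

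**Figure D3:**
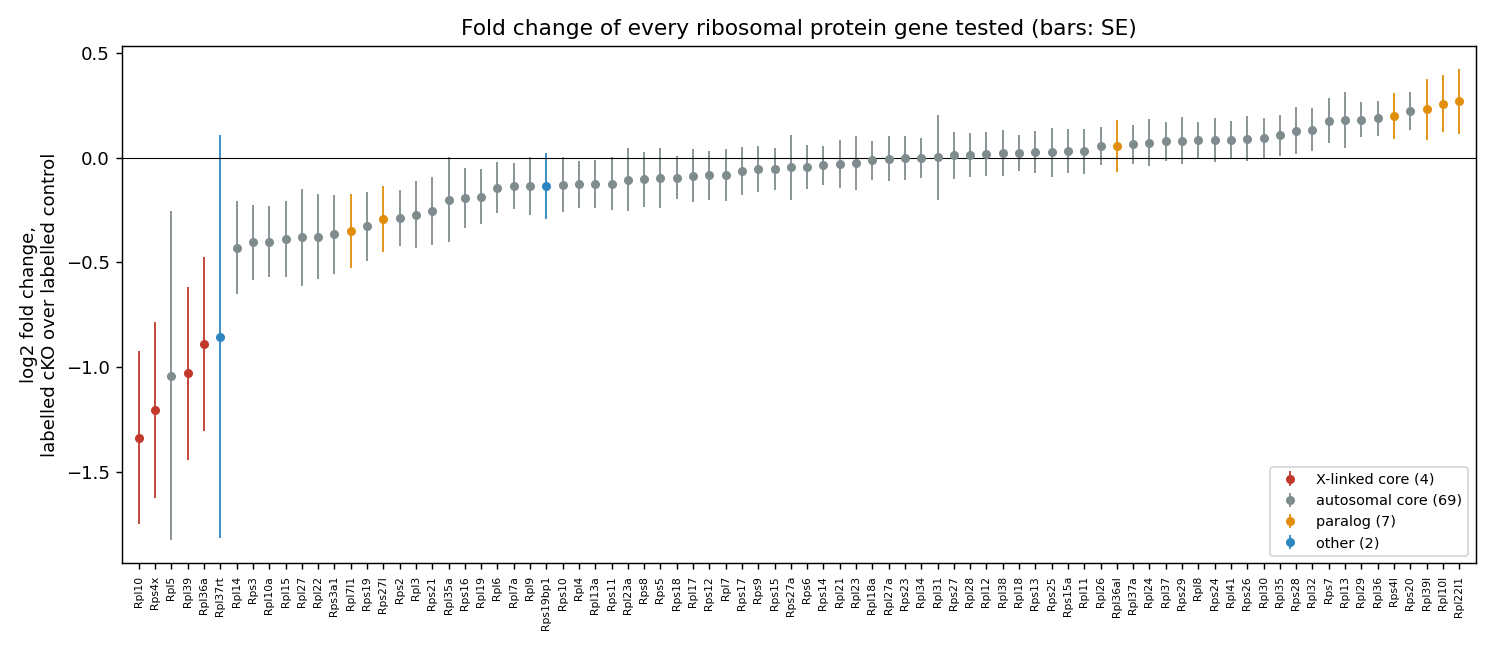
Fitted log2 fold change, labelled cKO over labelled control, with its SE, for each ribosomal protein gene tested, ordered by value and coloured by class. The 4 X-linked core genes lie at the low end between -1.34 and -0.89, with the autosomal Rpl5 at -1.04 and Rpl37rt at -0.85 beside them with larger SE, while the other autosomal genes lie between -0.43 and 0.27.

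Set against the mean of the libraries labelled cKO, single libraries differed by class. The median log2 difference of the X-linked core genes was 0.73, 0.09 and 1.88 in control replicates 1, 2 and 3. For the autosomal core genes it was -0.11, -0.001 and 0.18, and for the 7 paralogs tested -0.18, -0.03 and -0.19. In control replicate 3, 57 of the 69 autosomal core genes and all 4 X-linked ones lay above that mean, as did 3 of the 7 paralogs. Control replicate 3 was the highest library for 58 of the 69 autosomal core genes in FPKM and for all 4 X-linked ones. Among autosomal core genes the highest library stood a median of 1.32 times above the lowest, and 53 of 69 were under 1.5 times; Rpl5, Rpl14 and Rpl22 reached 2 or more. The same ratio was 3.81 to 4.80 for the X-linked genes. Spread within a group was smaller under the label cKO: the median coefficient of variation of autosomal core genes was 3.93% there and 13.2% in the libraries labelled control, and it was the larger in the libraries labelled control for 64 of 69.

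**Figure D4:**
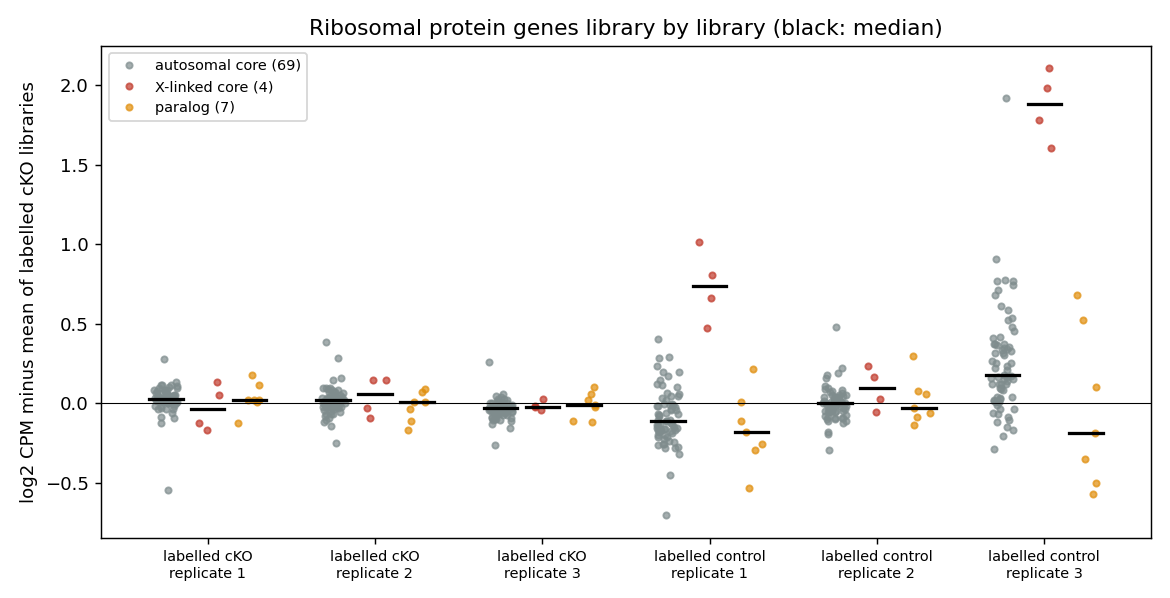
Difference in log2 CPM from the average under the label cKO, for each core autosomal, core X-linked and paralog gene in each library, with black marks for the median of each class. The X-linked genes have medians of 0.73 and 1.88 in control replicates 1 and 3, where the paralogs lie at -0.18 and -0.19.

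Markers of other cell types differed alongside these genes, and their part in the differences was not tested. All 8 Leydig markers, all 12 Sertoli markers and all 8 macrophage markers were negative, with median log2 fold changes of -1.81, -0.99 and -1.45. The summed Sertoli level was 1080, 1103 and 1044 FPKM in the libraries labelled cKO, against 1935, 1375 and 3547 FPKM in those labelled control. The order of the 3 libraries labelled control was replicate 3, then 1, then 2, the same as for Rpl10, Rpl39, Rpl36a and Rps4x. Spermatocyte markers, 9 of 9 positive with a median of 0.30, summed to 3219, 3092 and 3164 FPKM in the libraries labelled cKO, against 2715, 3145 and 2337 FPKM in those labelled control. The 6 round spermatid markers (all positive, median 0.35) summed to 1186 to 1248 FPKM in the libraries labelled cKO and 858 to 1112 FPKM in those labelled control. For the 7 elongating spermatid markers (all positive, median 0.37) the sums were 26208 to 28731 FPKM and 18095 to 25417 FPKM. All these germ cell sums were lowest in control replicate 3, like Rpl10l and Rpl39l. Of 8 spermatogonium markers 6 were negative, with sums of 71.5 to 75.1 FPKM in the libraries labelled cKO and 87.2 to 122 FPKM in those labelled control. The macrophage markers summed to 41.9 to 49.0 FPKM in the libraries labelled cKO and 48.5 to 227 FPKM in those labelled control. Of the epididymis markers Lcn5 and Lcn8 were at 0 in every library and the list summed to at most 3.58 FPKM.

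The 4 genes were set beside all X-linked genes tested, which include them. Of 728 X-linked genes tested, 503 were negative (69.1%, against 50.5% of all genes), with a median of -0.45. Without overlap, 278 were lower (38.2%, against 19.8% of all genes) and 22 higher (3.02%, against 18%). None passed in edgeR's quasi-likelihood test. An unadjusted p under 0.05 in that test, in either direction, was found for 288 of the 728, against 5056 of all 18269 genes (8.85% higher and 18.8% lower). DESeq2 called 143 lower and 3 higher, against 8.04% and 0.445% of the genes it tested. A list of 8 other X-linked genes with an autosomal retrogene, chosen by hand rather than as every such gene, was read in the same way. The FPKM ratio of retrogene to parent was higher in the libraries labelled cKO for 7 of the 8. For 5 its groups did not overlap. No such share was computed for ratios over all genes, and for single genes in CPM it was 18% higher and 19.8% lower. The log2 ratio of Pgk2 to Pgk1, glycolytic enzymes, differed by 1.14, that of Pdha2 to Pdha1, of pyruvate dehydrogenase, by 1.42, and that of Rbmxl2 to Rbmx, RNA-binding proteins, by 1.44. Without control replicate 3, an alternative chosen after seeing the data, they differed by 0.68, 0.88 and 0.98 in the same order, and Gk2 to Gk, glycerol kinases, by -0.05 against 0.15 with all 6. Cstf2t to Cstf2, of the polyadenylation machinery, differed by -0.08. With all 6 libraries, Ubl4b to Ubl4a differed by 1.45, Cetn1 to Cetn2 by 0.56 with overlap, and Utp14b to Utp14a by 0.46. Without control replicate 3 these were 0.93, 0.19 and 0.14. Pdha1 itself had a log2 fold change of -1.32, or -0.78 without that library, and Rbmx had 2.68, 3.11 and 2.48 FPKM in the libraries labelled cKO, against 5.74, 4.20 and 7.91 FPKM in those labelled control.

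The rest of the translation machinery was read from lists. Ribosomal proteins under other names (7 genes) had a median of -0.02: Rack1, a scaffold on the small-subunit head, had 67.3, 69.2 and 66.8 FPKM in the libraries labelled cKO, against 89.3, 71.0 and 135.4 FPKM in those labelled control. Of 36 ribosome biogenesis genes, 0 passed in edgeR and 23 were negative (median -0.07), with 11 lower (30.6%, against 19.8% of all genes) and 3 higher (8.33%, against 18%) without overlap. At an unadjusted p under 0.05 in edgeR, in either direction, there were 7 of the 36, against 5056 of all 18269 genes (8.85% higher and 18.8% lower). Ubtf, a transcription factor of RNA polymerase I, had 7.47, 8.05 and 8.15 FPKM in the libraries labelled cKO, against 14.6, 10.2 and 23.6 FPKM in those labelled control (log2 fold change -0.93, SE 0.26; adjusted p 0.166 in edgeR's quasi-likelihood test and 0.0211 in DESeq2). Without control replicate 3 it was -0.57, and that of Rack1 was -0.15, against -0.44 with all 6 libraries. Polr1b, a subunit of that polymerase, had a log2 fold change of -0.62 (SE 0.17).

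Of 28 translation factors tested, 20 were positive, with a median of 0.13. Without overlap, 11 were higher (39.3%, against 18% of all genes) and 2 lower (7.14%, against 19.8%). None passed in edgeR or in DESeq2. An unadjusted p under 0.05 in edgeR, in either direction, was found for 4 of the 28, against 5056 of all 18269 genes (8.85% higher and 18.8% lower). Eef1g, a subunit of the elongation factor that brings aminoacyl-tRNA, had 343, 342 and 329 FPKM in the libraries labelled cKO, against 285, 327 and 281 FPKM in those labelled control (log2 fold change 0.28, SE 0.11). Eif2s3x, the X-linked gene for a subunit of initiation factor 2, had 3.18, 3.44 and 3.20 FPKM in the libraries labelled cKO, against 5.66, 3.72 and 10.9 FPKM in those labelled control (log2 fold change -0.94, SE 0.34), and without control replicate 3 the log2 fold change was -0.43. The 77 mitochondrial ribosomal protein genes that were tested had a median of -0.05. Without overlap, 13 were higher (16.9%, against 18% of all genes) and 12 lower (15.6%, against 19.8%).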

How the data were processed

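The deposited tables hold, per the file headers, a length, an expected count and an FPKM value for each gene of one library. The deposited expected counts are not normalized, and the deposited FPKM values are corrected for gene length and library depth. Only genes of at least 0.01 FPKM are listed, so a missing gene was set to 0. RSEM, HISAT2 2.0.4, Bowtie2 2.2.5, DESeq2, bcl2fastq 2.16 and the build mm10 are named, without roles, in the submitters' processing notes. Whether strand was kept was not given in the sources used here.

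Libraries were grouped by title. Expected counts were rounded, filtered with filterByExpr (minimum count 10, total 15), scaled by TMM and compared by the quasi-likelihood test of edgeR 4.0.16 in R 4.3.3, over 18269 genes with Benjamini-Hochberg adjustment at 0.05. The common biological coefficient of variation was 22.8%. The SE of a fitted log2 fold change was worked back from that test, as its absolute value over the square root of the F value. FPKM is given as mean ± SD and served for paralog ratios, tested by exact permutation. "Without overlap" means that every library of one group exceeded every one of the other in CPM. DESeq2 1.42.0, limma 3.58.1 on log2(FPKM + pseudocount), other scalings and filters, and each library left out in turn were the alternatives. The fits were first tested on simulated data with known changes. The simulated spread between libraries was set below that of these data, so the outcome checks the code alone.

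The members, lists and tests were chosen with earlier results of these data known. Genes were named by rule: the targeted gene, every paralog and its parent, the 5 most abundant members, the 4 highest and 4 lowest fold changes, members called in edgeR or else in DESeq2, and for each other list its 2 genes of lowest p, except mitochondrial ribosomal proteins, given only as counts and a median. Of the genes so named, 1 is not reported here. Totals of this size make counting error small for most members.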

Additional observations from a re-analysis of the deposited data

How the results depend on the processing

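The libraries of a group number 3, so adjusted p-values turn on single libraries, and no gene described here passed in edgeR's quasi-likelihood test with all 6. Counts of calls depended on the tool: against 0 higher and 0 lower genes in edgeR, DESeq2 called 75 higher and 1354 lower of all genes, of which 2 lower were ribosomal protein genes, and limma on FPKM called 1 higher under each of its settings. Leaving out a library gave 0 to 2049 higher and 0 to 3851 lower of all genes, and 0 to 1 higher and 0 to 7 lower of the ribosomal protein genes, the upper ends without control replicate 2. The median of the X-linked core genes ran from -1.42 to -0.46 as libraries were left out; the alternatives for this median and for that of all genes were chosen after seeing the data. Small fold changes turned: with library totals alone Rpl36al was at -0.043, Rps27 at -0.089, Rpl41 at -0.014, Rps29 at -0.020 and Rpl26 at -0.044, and that scaling moved the median of all genes to -0.10. limma on FPKM gave -0.036 for Rpl36al, -0.077 for Rps27, -0.011 for Rpl41, -0.012 for Rps29 and -0.042 for Rpl26 under each of its settings. The stricter filter of 5 CPM gave Rps27 -0.024. Leaving out single libraries gave -0.036 to 0.14 for Rpl36al, -0.074 to 0.11 for Rps27, -0.15 to 0.057 for Rpl7 and -1.51 to 0.35 for Rpl5. The Rpl3l to Rpl3 ratio, 0.15 with a pseudocount of 0.1, was -0.014 with 0.01 and -0.25 to 0.38 as libraries were left out. The cause was not tested. The replicate numbers are not stated to pair the samples. Deviations of libraries with the same number correlated at 0.04, -0.007 and -0.04, and those with different numbers at -0.066 to 0.074. With 3 libraries in a group these values cannot exclude a pairing. With the replicate block 0 genes were called, the core median was -0.04 and the X-linked median -0.92.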
